A study of Caenorhabditis elegans with 6 samples.

Results

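The genes described here are the 65 non-coding genes that were most abundant in the second of 2 tables of RNA-seq values from *C. elegans*. N2 worms, the wild-type strain, were raised to young adults and then held at 20°C for 7 days on agar plates (NGM) that contained either 0.1 μM VK2, vitamin K2, or no VK2, with daily moves to new plates that left the progeny behind. Whole adult bodies were collected, and the second table holds 2 libraries of control worms, C2 and C3, and 2 libraries of VK2-treated worms, T2 and T3. The other 2 libraries of the series, in a table normalized separately, were not used here. Values are FPKM, fragments scaled to the transcript length and the library size, added up over the transcripts of each gene. A gene was taken when none of its transcripts was annotated as protein-coding and its mean FPKM over the 4 libraries was at least 5. This held for 65 of the 782 non-coding genes and of the 16724 genes of the table, so the genes were chosen by their mean FPKM, and a high mean is no result.

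Non-coding RNAs act as RNA and are not translated. Some form the core of ribonucleoproteins that every cell needs. The signal recognition particle, which brings ribosomes that make secreted proteins to the endoplasmic reticulum, is built on an RNA, and so are RNase P, which trims the leader from precursor transfer RNAs, and RNase MRP, which cuts precursor ribosomal RNA. Others are long intervening non-coding RNAs (lincRNAs), which lie between coding genes, or antisense RNAs, which are read from the strand opposite a gene. Many short non-coding genes of the worm lie inside coding genes and have only a sequence name.

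By the biotype given in the table, 60 of the 694 genes called ncRNA reached the minimum, as did 5 of the 62 called lincRNA and 0 of the 26 called antisense RNA. At a mean FPKM of at least 1, the counts were 228, 26, and 9. The newer annotation of Ensembl release 115 held all 65 genes and called 59 of them ncRNA and 6 lincRNA, the difference being *T09F5.12*. The genes were spread over all chromosomes, with 9 on chromosome V, 14 on chromosome X, and 10 or 11 on each of the others. Exon length ran from 53 to 2525 bases with a median of 190, and 9 genes had 100 bases or fewer. Because FPKM divides by length and no source used here gives the number of reads, the depth behind each value is unknown, and a short gene reaches a high FPKM from few fragments.

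The position of each gene was set against the coding genes of the annotation. In 34 of the 65 no coding gene overlapped. In 19 the span overlapped an exon of a coding gene on the same strand, in 8 it lay in an intron on the same strand, and in 4 it lay within a coding gene on the opposite strand. The library kit keeps strand, but no source used here gives the strand setting of the counting, and fragments of a non-coding gene and of an overlapping gene cannot be told apart with certainty.

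The members just inside the minimum were *F46A8.13* at a mean FPKM of 5.25, *F22H10.10* at 5.19, and *T28C12.10* at 5.15. Just outside were *F53H2.4* at 4.92, *F31C3.13* at 4.78, and the lincRNA *F19G12.10* at 4.76. *F53H2.4* was far from even, with an FPKM of 11.6 in C3 and 8.09 in T3 but 0.0053 in C2 and 0.0026 in T2. Also under the minimum was *rncs-1*, a non-coding RNA known to be induced by starvation, with 2.99 and 5.27 in C2 and C3 and 5.06 and 5.06 in T2 and T3.

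Facts of the whole table bear on what follows. The FPKM of all transcripts summed to between 369349 and 396004 in a library. C3 stood apart: it was the lowest of the 4 libraries for 48% of the 14355 genes tested and the highest for 30.1%. In C3 the sperm markers were lowest for 28 of 29 genes and summed to 605, against 1095 to 1147 in the other libraries. The oocyte and embryo markers were lowest there for 19 of 19 and summed to 975 against 2177 to 2748. The somatic markers of muscle, intestine, neurons, and hypodermis summed to 2076 against 4461 to 5837, and C3 was the lowest for 5 of 16 and the highest for 6. The low somatic sum came from 2 yolk protein genes of the intestine, *vit-2* and *vit-6*, which summed to 664 in C3 against 3206 to 4320. The other 14, a split made after the values were seen, summed to 1412 in C3 against 1255 to 1518, so they were not low there as a group. No tested marker of these lists was at 0 in any library. The worm samples are whole bodies, so fewer cells of a type and less RNA per cell cannot be told apart.

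The members took a small share of the summed FPKM, and a few of them held most of it. Their share was 2.27% and 3.46% in C2 and C3 and 3.09% and 2.43% in T2 and T3. The 2 highest genes made up 53% of the members' mean FPKM and the 10 highest made up 86.6%. At the other end, 22 members had a mean between 5 and 10. The ncRNA members summed to 8960 and 12860 in C2 and C3 and 11384 and 9268 in T2 and T3, and the 5 lincRNA members to 35.6, 46.6, 37.3, and 45. For both biotypes the VK2 sums lay between the control sums.

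**Figure D1:**
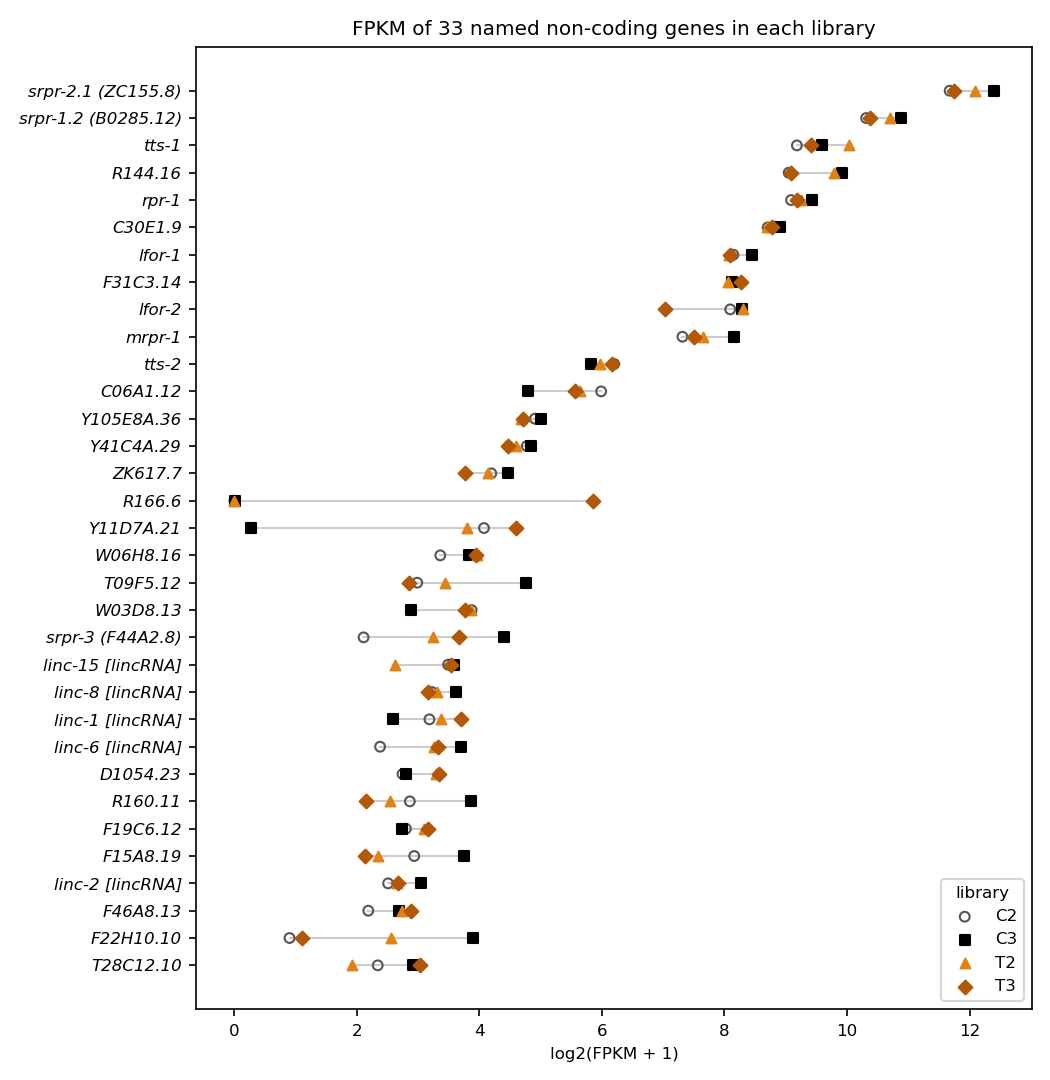
FPKM of the 33 named members in each library, as log2(FPKM + 1) on the horizontal axis, ordered by mean level, with a grey line from the lowest to the highest of the 4 libraries. Control libraries are C2 (open circles) and C3 (squares), VK2 libraries are T2 (triangles) and T3 (diamonds); *R166.6* is near 0 in all but T3 and *Y11D7A.21* near 0 in C3 alone.

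The first comparison asked whether these genes differ between VK2-treated and control worms. No member passed the test. On log2(FPKM + 1), the fitted difference of VK2 minus control was above 0 for 29 members and below 0 for 36, with a median of -0.05 against 0.02 over all genes tested. The test was limma, two-sided, with Benjamini-Hochberg adjustment over the 14355 genes of any biotype with a mean FPKM of at least 1. After adjustment it called 0 members and 0 genes (0.0%) at the threshold of 0.05. The smallest adjusted p was 0.878 over all genes and 1.00 over the members. At an unadjusted p below 0.05 there were 3 members (*F15A8.19*, *R160.11*, and *D1054.23*), where the share over all genes was 1.44%, or 207 genes. The F-test without shared spread, as in Ballgown, also called 0 genes, and 359 of them, 4 of which were members, had an unadjusted p below 0.05. With 2 libraries against 2, an exact permutation test of a single gene cannot go below 0.333.

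Counts by size alone stayed near the background. A fitted difference of at least 1.5 times was reached by 3 members that were higher with VK2 (background 3.77%) and by 4 that were lower (background 3.99%). The libraries of the groups did not overlap, with VK2 higher, for 8 members, where the share over all genes was 11%, and with VK2 lower for 8, where it was 14.0%. The result depended on which control was kept. With C3 as the only control, the median log2 difference was -0.16 over the members and 0.10 over all genes. With C2 as the only control, it was 0.05 and -0.08. A single control has no spread of its own and was assumed to vary like the VK2 libraries. Nothing in the labels says that the libraries came from separate cultures, so the p-values measure only the spread between these libraries.

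**Figure D2:**
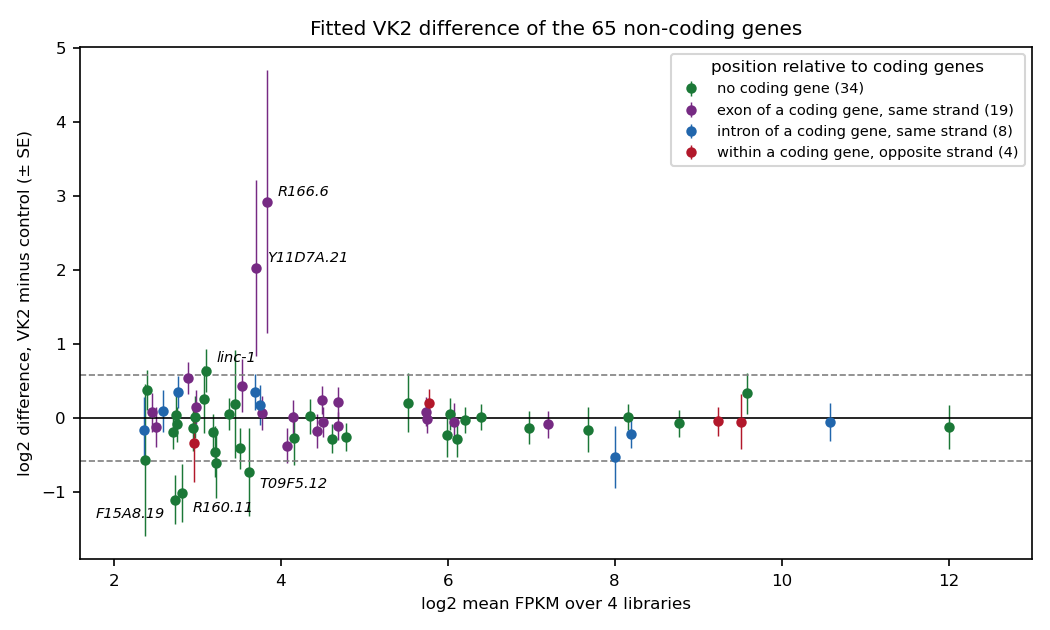
Fitted log2 difference of VK2 minus control (vertical axis, ± SE from limma) against log2 of the mean FPKM over the 4 libraries, for all 65 members, coloured by position relative to coding genes. Dashed lines mark a change of 1.5 times; the differences run from -1.1 to 2.92, and the 2 highest points, *R166.6* and *Y11D7A.21*, have the widest errors.

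The most abundant members were RNAs of the signal recognition particle. *srpr-2.1* (WBGene00195016, listed as *ZC155.8*) lies on chromosome III of WBcel235 from 5211220 to 5211518 on the plus strand, and no coding gene overlaps it. Its FPKM was 3270 and 5401 in C2 and C3 and 4367 and 3423 in T2 and T3, so both VK2 libraries fell between the control libraries, and the log2 difference was -0.12 (SE 0.30). *srpr-1.2* (WBGene00045168, listed as *B0285.12*), on the plus strand of chromosome III from 4369475 to 4369767 in an intron of *ckb-2*, was at 1270 and 1875 in C2 and C3 and 1661 and 1334 in T2 and T3. It had the same order of libraries, with a log2 difference of -0.05 (SE 0.26). *srpr-3* (listed as *F44A2.8*, chromosome V from 9293334 to 9293632) was at 3.32 and 20.1 in C2 and C3 and 8.45 and 11.7 in T2 and T3. It was again lowest in C2 and highest in C3, and its log2 difference was 0.19 (SE 0.73). Per length, *srpr-3* was much less abundant than the other two. These genes are copies of one kind of RNA, and no source used here says how reads that match several copies were counted, which leaves the division among them uncertain. Their sum was 4543 and 7296 in C2 and C3 and 6037 and 4768 in T2 and T3. That is the order of *srpr-2.1* and *srpr-1.2*, which make up nearly all of the sum, whereas *srpr-3* had T3 above T2.

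*R144.16* is tied to this family by position. It overlaps, on the same strand, an exon of *srpr-2.2*, another gene of the family, and lies in an intron of *klp-6*, a kinesin gene on the opposite strand. Its FPKM was 528 and 968 in C2 and C3 and 880 and 543 in T2 and T3, and the log2 difference was -0.05 (SE 0.38). C3 and T2 were high and C2 and T3 low, an order that cuts across the groups.

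The RNAs of the processing ribonucleoproteins were also among the 10 highest members. *rpr-1*, the RNA of RNase P (WBGene00045238, chromosome I from 13463955 to 13464207), was at 543 and 688 in C2 and C3 and 605 and 581 in T2 and T3, with a log2 difference of -0.04 (SE 0.20). Both VK2 values lay between the controls. *rpr-1* lies in an intron of *ints-8*, a gene for a subunit of the Integrator complex, on the opposite strand. The coding gene was at 11.6 to 16.8, far under the level of the RNA. *mrpr-1*, the RNA of RNase MRP (WBGene00045095, chromosome II from 7200233 to 7200418), was at 158 and 285 in C2 and C3 and 201 and 180 in T2 and T3, with a log2 difference of -0.16 (SE 0.31). The order of libraries, C3 over T2 over T3 over C2, was that of *srpr-2.1*, *srpr-1.2*, *R144.16*, and *rpr-1*, and 10 of the 65 members had it. How many of all genes had this order was not counted, so the count of members has no background.

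Among the members of 100 FPKM or more, *tts-1* had the highest fitted difference. It is a long non-coding RNA that is abundant in long-lived *daf-2* mutants, where it binds ribosomes and is needed for the long life. *tts-1* (WBGene00006650, chromosome X from 1504131 to 1504841, minus strand) was at 580 and 772 in C2 and C3 and 1047 and 679 in T2 and T3. T2 was the highest library, but T3 lay between the controls, and the log2 difference of 0.33 (SE 0.28) did not pass limma's test (Benjamini-Hochberg adjusted p of 1.00). Without T2 the difference was 0.02. *tts-2* (chromosome II from 10201125 to 10202230) was at 72.6 and 55.3 in C2 and C3 and 61.4 and 70.6 in T2 and T3, with a log2 difference of 0.05 (SE 0.22). Its lowest library was C3.

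Of the other abundant members, *C30E1.9* and *F31C3.14* were nearly even. *C30E1.9* (chromosome X from 16929914 to 16931619) was at 417 and 479 in C2 and C3 and 414 and 437 in T2 and T3. *F31C3.14* (chromosome I from 15067668 to 15068355), opposite the ribosomal RNA gene *rrn-3.1*, was at 291 and 277 in C2 and C3 and 267 and 308 in T2 and T3. Their log2 differences were -0.07 (SE 0.18) and 0.01 (SE 0.18), the smallest errors among the 10 highest members. Over all members, 8 varied by less than 1.2 times from the lowest to the highest library and 34 by at least 1.5 times.

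*lfor-1* and *lfor-2* lie close together on chromosome II, at 14635795 to 14636093 and 14641314 to 14641615, each in an intron of a coding gene on the same strand. *lfor-1*, in *sre-13*, was at 282 and 347 in C2 and C3 and 269 and 270 in T2 and T3. It was the only member of 100 FPKM or more whose VK2 and control libraries did not overlap, with VK2 lower, and its log2 difference was -0.21 (SE 0.19, adjusted p of 1.00 from limma). *lfor-2*, in *atgp-2*, was at 272 and 311 in C2 and C3 and 314 and 130 in T2 and T3, with a log2 difference of -0.52 (SE 0.42). T3 alone was low, and without it the difference was 0.11. *atgp-2*, which encodes a subunit of an amino acid transporter, was at 15.9 and 15.5 in C2 and C3 and 15.1 and 56.8 in T2 and T3. The intron gene was thus low and its coding gene high in the same library. How fragments were divided between the pair was not tested.

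The lincRNA members had low and similar levels, and none passed the test. *linc-1* (WBGene00194659, chromosome I from 13652524 to 13652727) was at 8.10 and 5.03 in C2 and C3 and 9.31 and 11.9 in T2 and T3. Both VK2 libraries were above both controls, and the log2 difference of 0.64 (SE 0.29) was the third highest among the members, at an adjusted p of 1.00 in limma. With 1 library left out the difference of *linc-1* ran from 0.34 to 0.94. Its sign could not change, since the groups do not overlap. *linc-15* (chromosome X) was at 10.2 and 11 in C2 and C3 and 5.19 and 10.7 in T2 and T3, with T2 alone low and a log2 difference of -0.45 (SE 0.35). *linc-6* (chromosome X) was at 4.21 and 12.0 in C2 and C3 and 8.58 and 9.05 in T2 and T3, with C2 alone low and a difference of 0.25 (SE 0.45). The remaining members, *linc-8* and *linc-2*, were between 4.70 and 11.3 in all libraries, highest in C3, with differences of -0.18 (SE 0.24) and -0.12 (SE 0.27). *linc-2* overlaps an exon of *pcf-11*, a gene of transcription termination, so the annotation does not place it wholly between genes.

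Beyond the members, the list of known non-coding RNAs held 61 lincRNAs in the table, of which 25 were tested. Their median log2 difference was -0.21, with 1 higher and 4 lower by at least 1.5 times, where the shares over all genes were 3.77% and 3.99%. In limma 1 had an unadjusted p below 0.05 (1.44% over all genes) and 0 were called. Of 15 antisense RNAs of the *anr* series, 2 were tested and 0 were called. The more abundant of them, *anr-8*, was at 2.79 and 2.08 in C2 and C3 and 3.63 and 4.34 in T2 and T3, with a log2 difference of 0.54. Of the 10 genes of this list called ncRNA, 9 were tested and 7 were members, and none differed by 1.5 times. Over the 198 non-coding genes with a mean FPKM from 1 to 5, the median log2 difference was -0.10, and 0 were called. By at least 1.5 times, 8 were higher (4.04%, against 3.77% over all genes) and 29 lower (14.6%, against 3.99%). C3, 1 of the 2 controls, was the highest library for 87 of the 198. It was at least 1.5 times each other library for 28 (14.1%, against 7.34% over all genes).

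The 19 members that overlap an exon of a coding gene on the same strand had a median exon length of 130 bases. They included the longest of all members, *W06H8.5*, at 2525 bases, and *R166.6* at 1791. All 19 coding genes were measured, and 11 of them had a higher mean FPKM than the member. The fitted VK2 difference had the same sign in member and coding gene in 12 of 19. *W03D8.13* (chromosome I from 2822737 to 2822836), in *pop-1*, which encodes the TCF transcription factor of Wnt signalling, was at 13.7 and 6.42 in C2 and C3 and 13.6 and 12.7 in T2 and T3. The coding gene was also lowest in C3, at 32.5, 18.2, 28.3, and 27.8. *ZK617.7* (chromosome IV from 11999491 to 11999620), in *unc-22*, which encodes the muscle protein twitchin, was at 17.3 and 21.0 in C2 and C3 and 16.7 and 12.6 in T2 and T3. Both VK2 libraries were below both controls, with a log2 difference of -0.37 (SE 0.24), while *unc-22* was at 102 and 88.3 in C2 and C3 and 88.3 and 91.2 in T2 and T3. *D1054.23* (chromosome V from 10800853 to 10801014), in *D1054.18*, was at 5.71 and 5.98 in C2 and C3 and 8.80 and 9.10 in T2 and T3. Its groups were well separated, with a log2 difference of 0.54 (SE 0.21, unadjusted p of 0.048, adjusted p of 1.00 from limma), and the coding gene was at 2.48, 2.66, 3.36, and 2.90, which do not overlap either.

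**Figure D3:**
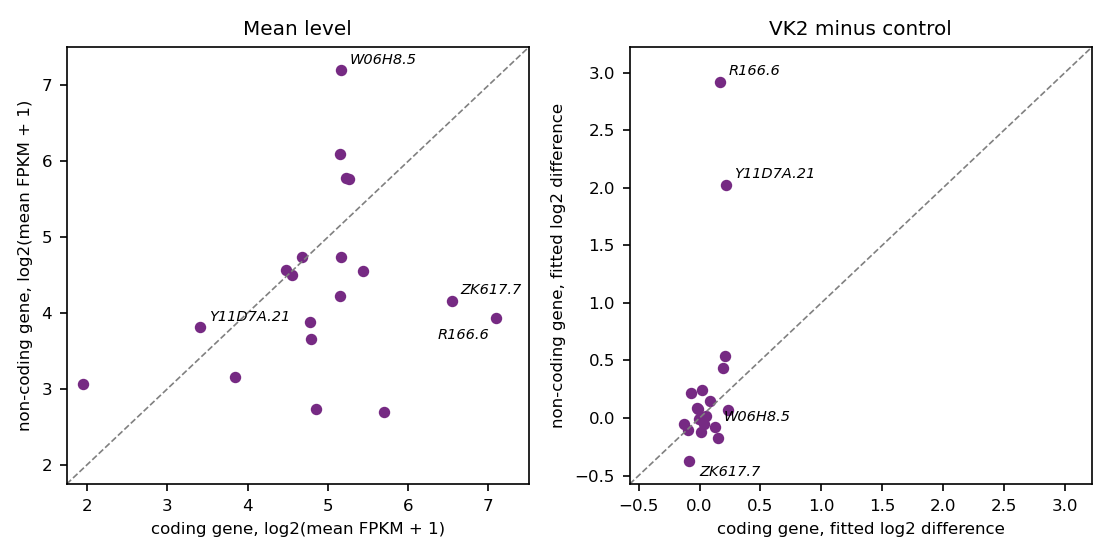
The 19 members that overlap an exon of a coding gene on the same strand, plotted against that coding gene, as log2 of the mean FPKM + 1 (left) and as the fitted log2 difference of VK2 minus control (right); the dashed line marks equal values. *R166.6* and *Y11D7A.21* lie far above the line on the right, at 2.92 and 2.03, where their coding genes are at 0.17 and 0.21.

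*R166.6* and *Y11D7A.21* had the largest fitted differences of all members, and each was set by 1 library. *R166.6* (WBGene00014492, chromosome II from 10542425 to 10544215, minus strand) was at 57 in T3 and at no more than 0.0093 in C2, C3, and T2. Its mean FPKM of 14.3, by which it was chosen, came from T3 alone. The log2 difference was 2.92 (SE 1.78), and without T3 it was -0.0050. Without T2, with T3 as the only VK2 library, the log2 difference was 5.85. *R166.6* overlaps an exon of *mnk-1*, a kinase gene, which was at 124 and 133 in C2 and C3 and 140 and 148 in T2 and T3. *Y11D7A.21* (WBGene00220131, chromosome IV from 9250107 to 9250192) was at 15.9 and 0.21 in C2 and C3 and 12.9 and 23.3 in T2 and T3. Here C3 alone was low, and the log2 difference of 2.03 (SE 1.19) was 0.13 without C3. Its coding gene, *Y11D7A.7*, was also lowest in C3, at 5.79, against 9.81 to 12.5 in the other libraries.

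The lowest fitted differences belonged to neighbours. *R160.11* (WBGene00220051, from 4394470 to 4394643) and *F15A8.19* (WBGene00219893, from 4410243 to 4410419) lie 15599 bases apart on chromosome X, on opposite strands, and no coding gene overlaps either. *R160.11* was at 6.29 and 13.6 in C2 and C3 and 4.84 and 3.46 in T2 and T3. *F15A8.19* was at 6.66 and 12.4 in C2 and C3 and 4.08 and 3.40 in T2 and T3. Both had the order C3 over C2 over T2 over T3, with no overlap between the groups. The log2 differences were -1.01 (SE 0.39, unadjusted p of 0.043) and -1.1 (SE 0.33, unadjusted p of 0.018), and after Benjamini-Hochberg adjustment in limma both p-values were 1.00. Without C3 the differences were -0.51 and -0.70.

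The rule for named genes gave 5 more members whose groups did not overlap. With VK2 higher, *W06H8.16* (log2 difference 0.36, SE 0.24), in an intron of *W06H8.6*, was at 9.28 and 13.2 in C2 and C3 and 14.6 and 14.4 in T2 and T3. *F46A8.13* (0.37, SE 0.27) and *F19C6.12* (0.35, SE 0.22), the latter in an intron of *grk-1*, a gene for a kinase of G protein-coupled receptors, had all values between 3.56 and 7.92. With VK2 lower, *Y41C4A.29* was at 26.4 and 27.6 in C2 and C3 and 23.2 and 21.0 in T2 and T3, with a log2 difference of -0.28 (SE 0.19). *Y105E8A.36* was at 29.0 and 31.1 in C2 and C3 and 24.7 and 25.2 in T2 and T3, with a difference of -0.26 (SE 0.19). In each of these 5, the fitted difference was under 2 times its standard error.

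The second comparison set C3 against the other libraries. C3 is 1 library, so it has no replicate and no test was made. Of the 65 members, C3 was the highest library for 34, where the share over all genes was 30.1%, and the lowest for 12, where it was 48%. C2, the other control, was the lowest for 23 (background 15.6%) and the highest for 8 (background 38%). T2 was the highest for 10 (17.7%) and the lowest for 15 (19.6%), and T3 the highest for 13 (14.1%) and the lowest for 15 (16.8%). C3 was thus more often the highest than the lowest library over the members, and more often the lowest over all genes. The median log2 difference of C3 minus C2 was 0.18 over the members and -0.15 over all genes, that of C3 minus T2 was 0.14 against -0.11, and that of C3 minus T3 was 0.13 against -0.10. Of the 198 non-coding genes with a mean FPKM from 1 to 5, C3 was the highest for 87 (43.9%). Of the 9443 protein-coding genes with a mean of at least 5, it was the highest for 27.3%.

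The size of the gap was mostly under 1.5 times. C3 was at least 1.5 times each of the other 3 libraries for 6 members, where the share over all genes was 7.34%, and at most 1/1.5 of each for 4, where it was 9.88%. Against C2 alone, 14 members were higher by 1.5 times in C3 (12.2% over all genes) and 4 were lower (20.1%). Against T2 the counts were 11 (11.2%) and 4 (16.5%), and against T3 they were 13 (11.6%) and 5 (14.6%). For the VK2 libraries, T3 was higher than T2 by 1.5 times for 6 members (1.93%) and lower for 6 (3.01%).

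The place of C3 was also counted by the position of the gene, and the difference between positions was not tested. Among the 34 that no coding gene overlaps, C3 was the highest library for 23 and the lowest for 3. Among the 19 that overlap a coding exon on the same strand, C3 was the highest for 5 and the lowest for 8, and the 19 coding genes were themselves lowest in C3 for 12 and highest for 1. The same sign of C3 minus C2 was found in member and coding gene for 12 of 19. Of the 12 members with a mean of 100 FPKM or more, C3 was the highest for 9 and the lowest for 0. The sums of the sperm, oocyte, and embryo markers, given above, were low in this same library. Any link between them and these counts was not tested.

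**Figure D4:**
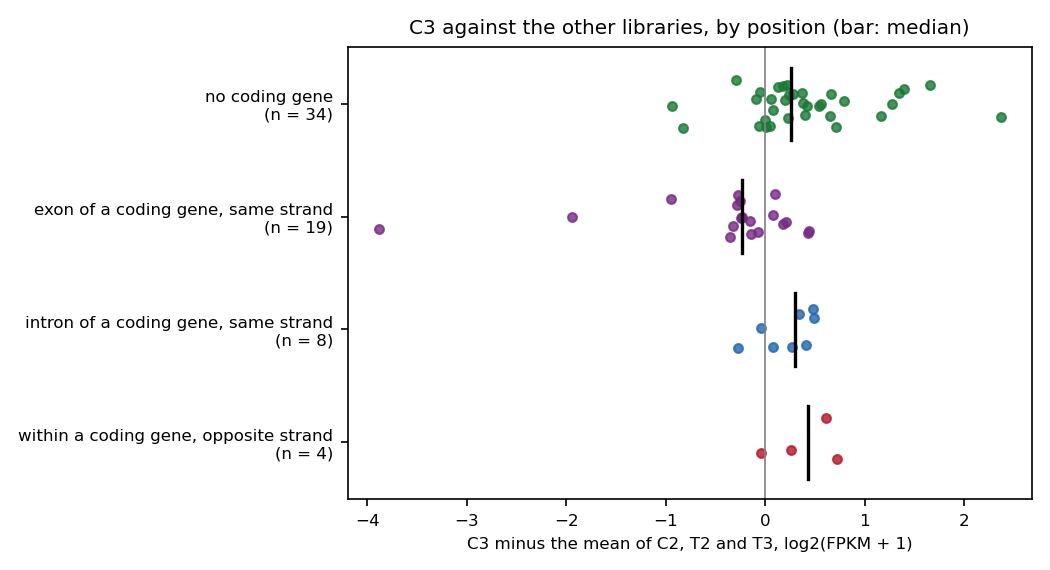
C3 minus the mean of C2, T2, and T3 on log2(FPKM + 1) (horizontal axis) for each of the 65 members, in rows by position relative to coding genes, with a bar at the median of each row (points are shifted vertically at random). The median is 0.26 for the 34 members with no coding gene and -0.23 for the 19 in a coding exon on the same strand, and *F22H10.10*, at 2.37, and *Y11D7A.21*, at -3.88, are the ends.

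The members with C3 furthest above the others all lie outside coding genes. *F22H10.10* (chromosome X from 16698131 to 16698298) was at 0.87 and 13.9 in C2 and C3 and 4.89 and 1.16 in T2 and T3, which put C3 2.37 above the mean of the others on the log2 scale. *T09F5.12* (chromosome V from 15164743 to 15166318), called a lincRNA in release 115, was at 6.93 and 26.0 in C2 and C3 and 9.86 and 6.23 in T2 and T3, a distance of 1.66. *srpr-3*, *R160.11*, and *F15A8.19*, with values given above, followed at 1.40, 1.34, and 1.27. In each of these 5, C3 exceeded every other library by at least 1.5 times. In the VK2 comparison, where C3 is 1 of the 2 controls, the standard errors were 1.03 for *F22H10.10* and 0.60 for *T09F5.12*.

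The members with C3 furthest below included 3 in coding exons, *Y11D7A.21*, *R166.6*, and *W03D8.13*, whose values are given above. For *R166.6* the distance of -1.94 came from T3, since C3 did not differ from C2 and T2. *C06A1.12* (chromosome II from 10574651 to 10574840), which no coding gene overlaps, was at 62.5 and 26.8 in C2 and C3 and 48.7 and 46.3 in T2 and T3, a distance of -0.93. *linc-1*, at -0.82, was the only lincRNA member that was lowest in C3. The other 4 lincRNA members were highest there.

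Genes of the proteins that work with non-coding RNAs were also looked at, and limma called 0 of them. For the 8 genes of the small nucleolar ribonucleoproteins, which modify ribosomal RNA, the median log2 difference was -0.01. For the 7 Sm proteins of the spliceosome (*snr-1* to *snr-7*) it was 0.02, and for the 9 *smg* genes of nonsense-mediated decay it was 0.08. None of the genes of these 3 lists differed by 1.5 times or had an unadjusted p below 0.05. Among the marker lists, the median was 0.43 for sperm and 0.44 for oocytes and embryos, against -0.08 for somatic cells, with 0 genes called. Both positive medians include the low values of C3. The oocyte and embryo markers summed to 2748 in C2, above 2177 and 2232 in T2 and T3, and to 975 in C3. The sperm markers summed to 1095 in C2, near 1123 and 1147 in T2 and T3, and to 605 in C3. Both VK2 libraries were above both controls for 16 of 29 sperm markers (11% over all genes) and below for 0 (14%). Many of these are near-identical *msp* copies that share reads. For the 19 oocyte and embryo markers the counts were 1 and 0.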

How the data were processed

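Total RNA from whole bodies was made into stranded libraries and sequenced in pairs. The submitters' processing notes name cutadapt, HISAT2 2.1.0, StringTie, and STAR 2.5.2b, and the study's methods give Hisat2 for alignment to WBcel235 and Ballgown for FPKM. The authors deposited the FPKM of each transcript, unpooled, in 2 tables. The annotation release, the strand setting, the handling of reads that match several places, and the filter on transcripts are not given in the sources used here. Only the table of C2, C3, T2, and T3 was used (25370 transcripts, of which 1129 were non-coding). Its header ends with the names of the 4 libraries, which were matched to the last 4 columns.

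FPKM was summed per gene. The 310 genes with both coding and non-coding transcripts were not members. The low values showed no step of whole fragments, so the depth of each library, and with it an interval or a floor, could not be had. Differences are on log2(FPKM + 1), which understates the change of low genes. limma 3.58.1 in R 4.3.3 was fitted with the trend on and robust off, two-sided, with VK2 as the only term, over the 14355 genes with a mean FPKM of at least 1, and p-values were adjusted over all of them by the Benjamini-Hochberg method. All 65 members passed this filter. Positions are those of the deposited table, and exon lengths, names, and overlaps come from Ensembl release 115 on the same build, in which the coordinates of many transcripts differ. Python 3.11.15, numpy 2.4.6, pandas 2.3.3, and matplotlib 3.10.9 were used. The test was also run on simulated data with independent noise for each gene. That simulation had no shift of a whole library, so it cannot show how the test performs with a library like C3.

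The members and the lists were chosen with earlier results of these data known. Named are the 10 members with the highest mean; the 5 largest rises and falls among members whose groups do not overlap; the 5 with C3 furthest above and below the others; the 3 highest of each biotype; the 3 on either side of the minimum; known non-coding RNAs; and the coding genes that hold a named member. Tried instead were pseudocounts of 0.1 and 5, the table unfiltered or cut at a mean FPKM of 5, upper quartile, protein-coding sum, or quantile scaling, the replicate number as a block, the trend off, robust on, the Ballgown form of the test, the top transcript of each gene, and each library left out. The block with crossed numbers was added after seeing the data.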

Additional observations from a re-analysis of the deposited data

How the results depend on the processing

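The number of reads is unknown, each group has 2 libraries, and C3 stands apart, so the counts below describe these libraries. Limma called 3 genes and 0 members with the top transcript of each gene, and 0 genes under the other alternatives that kept all 4 libraries without a block. Members at an unadjusted p below 0.05 were 1 with a pseudocount of 5, with upper quartile scaling, or with the top transcript. With a pseudocount of 5, 2 members were lower by 1.5 times, and with upper quartile scaling C3 was apart and higher for 10. With protein-coding sum scaling, 5 members did not overlap with VK2 lower. The shares over all genes are not set beside these counts, so they show nothing particular to the members. The median difference of the members ran from -0.08 to -0.01 with all 4 libraries and from -0.16 to 0.05 with 1 left out.

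Nothing in the labels says that equal replicate numbers share a source. The differences C2 minus C3 and T2 minus T3 had a Pearson's r of -0.104 across 14355 genes, which are not independent, so the numbers were not taken to pair the libraries. With the replicate number as a block limma called 6 genes and 0 members, and with the crossed pairing, chosen after seeing the data, 0 genes (451 at an unadjusted p below 0.05). The block changed no call among the members.

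Leaving out 1 library leaves 1 alone in its group, assumed to vary like the other group, and makes overlap less likely by construction. Genes called ran from 0 to 3118, members called from 0 to 13, and members at an unadjusted p below 0.05 from 0 to 18. Members higher by 1.5 times ran from 2 to 6 and lower from 2 to 10. Those that did not overlap ran from 15 to 26 with VK2 higher and from 16 to 34 with VK2 lower. C3 was apart and higher for 6 to 11 members and lower for 4. No share over all genes stands beside these counts, so they are no result about the members. Other causes were not tested.

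Of the 33 named members, 13 kept the sign of their difference in all of these fits. Where the groups do not overlap, leaving out 1 library cannot change the sign. The naming rule took the largest rises and falls from such members, so their signs were fixed by the selection. The 13 are therefore no measure of stability. The ranges of those that changed sign were -0.48 to 0.24 for *srpr-2.1*, -0.33 to 0.23 for *srpr-1.2*, -0.95 to 1.34 for *srpr-3*, -0.48 to 0.39 for *R144.16*, -0.21 to 0.13 for *rpr-1*, and -0.58 to 0.27 for *mrpr-1*. They were -0.14 to 0.25 for *tts-2*, -0.17 to 0.030 for *C30E1.9*, -0.090 to 0.12 for *F31C3.14*, -1.15 to 0.11 for *lfor-2*, -0.0050 to 5.85 for *R166.6*, -2.06 to 0.93 for *F22H10.10*, -1.61 to 0.16 for *T09F5.12*, -0.71 to 0.40 for *T28C12.10*, -0.054 to 0.93 for *W03D8.13*, and -0.39 to 0.80 for *C06A1.12*. For the lincRNAs they were -0.91 to 0.0053 for *linc-15*, -0.39 to 0.15 for *linc-2*, -0.41 to 0.91 for *linc-6*, and -0.38 to 0.013 for *linc-8*. With all libraries, *F31C3.14* was at -0.014 with upper quartile scaling. Quantile normalization gave 0.00 for *srpr-2.1*, 0.046 for *srpr-1.2*, 0.056 for *rpr-1*, and 0.014 for *C30E1.9*.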
